A study of Mus musculus with 16 samples.

Results

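The interferon response and MHC class I genes were described in leukaemia lines from mouse T-ALL (acute lymphoblastic leukaemia of T cells) and in derivatives resistant to chemotherapy drugs. The set is a list of 47 gene symbols, chosen by name. A row was found for 44 of them among the 13474 rows of the table; Ifit1, Ifit3 and Oas1a have none in the table used here. All 44 passed the filter on low values. They are 5 receptor and kinase genes, 7 transcription factors, 3 genes of RNA sensing, 11 restriction factors and enzymes, 2 genes of the ISG15 system, 9 other interferon-stimulated genes and 7 genes of MHC class I presentation.

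Interferons are secreted proteins that warn cells of infection. Type I interferons bind the IFNAR1 and IFNAR2 receptor, whose kinases (TYK2 and JAK1) activate a complex with STAT2 and IRF9 that binds the interferon-stimulated response element (ISRE); interferon gamma binds IFNGR1 and IFNGR2 and acts at gamma-activated sites (GAS). Both pathways raise genes that block viruses and genes that load peptides onto MHC class I, the complex of a heavy chain (H2-K1 or H2-D1 in mouse) and beta-2 microglobulin that shows peptides to CD8 T cells.

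RNA was sequenced from 16 cultures, 1 library each, and all labels carry the same batch date. Lines 2883, 2696, 2641 and 2869 have the genotype Mcm2cre/cre, an insertion that lowers the replicative helicase subunit Mcm2, and line 7298 is SCL/LMO1 transgenic; which promoters drive these alleles is not given in the sources used here. The 5 parental cultures were treated with PBS. The 11 resistant derivatives were labelled for cytarabine, a nucleoside analogue (lines 7298, 2883 and 2869), vincristine, a microtubule poison (2883, 2696 and 2869), etoposide, a topoisomerase II poison (2883 and 2696), prednisone, a glucocorticoid (2883 and 2641), and methotrexate, an antifolate (2883). All cells were thymus-derived and grown in DMEM with serum. Nothing in the labels says that a resistant culture was selected more than 1 time per line, so p-values measure the spread between single cultures after the model terms. Each drug comparison uses the same 5 parental libraries.

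Levels are given as CPM, reads of a gene scaled to a common library size, recovered from the deposited FPKM. Estimated depth was 12142122 to 13498399 reads in the 5 parental and 14066190 to 18956060 in the 11 resistant libraries, so depth and resistance cannot be told apart as sources of a difference between these groups. A count of 0 allows up to 3 reads, which is 0.158 to 0.247 CPM over the 16 libraries. Mcm2 was at 54.0 to 187 CPM in the 14 Mcm2cre/cre libraries and at 320.5 and 446 CPM in line 7298; Lmo1 was at 222 and 270.1 CPM in line 7298 and had 0 reads elsewhere. Tal1, the mouse gene for SCL, did not mark that line: it was at 0.00793 and 0.0622 CPM in the libraries labelled SCL/LMO1 transgenic and reached 5.75 CPM in the others, so only the Lmo1 part of the label was seen in these values. The sum of 12 T cell markers was 3958 to 7097 CPM in parental and 4159 to 7050 CPM in resistant libraries, although Cd4 reached 0 reads in some of them. Of the other lineages, 1 of 6 B cell markers (Cd79b, at most 13.2 CPM), 2 of 9 myeloid markers (sums of 3.85 to 34.3 CPM), 3 of 5 plasmacytoid dendritic cell markers (2.40 to 195.9 CPM, of which Tcf4 alone reached 187.9 CPM), 1 of 5 stromal markers (Pdgfrb, up to 433 CPM) and 1 of 4 endothelial markers (Pecam1, up to 220.4 CPM) had a row, and 0 of 5 erythroid markers. The part of such cells in the values below was not tested.

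The sequence before the start of 7 members is shown. The members described in most detail include genes with and without a match to the ISRE or GAS core. The stretches are the 150 bases before the RefSeq start (build GRCm38.p6), 5′ to 3′ on the strand of the gene, with matches to the ISRE core (GAAA, any 2 bases, GAAA) or the GAS core TTCNNNGAA in capitals. Isg15 (a ubiquitin-like modifier), Rsad2 (viperin), Ifitm2 and B2m hold ISRE matches, Isg20 and Irf1 hold a GAS match, and H2-K1 holds neither in this window. Only 1 RefSeq start is shown per gene, and the stretches of the other Isg20 and Irf1 starts hold no GAS match. In the Ifitm2 stretch, 26 bases lie in an annotated exon of the gene.
Isg15 (chr4:156200819-156200968, minus strand): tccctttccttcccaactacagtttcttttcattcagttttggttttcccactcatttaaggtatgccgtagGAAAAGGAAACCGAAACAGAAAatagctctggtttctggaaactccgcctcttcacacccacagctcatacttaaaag
Rsad2 (chr12:26456453-26456602, minus strand): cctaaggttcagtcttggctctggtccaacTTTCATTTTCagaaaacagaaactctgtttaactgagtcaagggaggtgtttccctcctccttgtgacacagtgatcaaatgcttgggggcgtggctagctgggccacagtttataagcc
Ifitm2 (chr7:140955962-140956111, minus strand): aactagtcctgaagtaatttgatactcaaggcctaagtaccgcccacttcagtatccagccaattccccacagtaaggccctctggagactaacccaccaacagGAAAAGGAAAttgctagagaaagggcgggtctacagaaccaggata
B2m (chr2:122147537-122147686, plus strand): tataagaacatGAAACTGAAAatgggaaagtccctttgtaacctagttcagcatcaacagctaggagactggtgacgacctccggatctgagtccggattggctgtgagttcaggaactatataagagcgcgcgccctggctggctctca
Isg20 (chr7:78913274-78913423, plus strand): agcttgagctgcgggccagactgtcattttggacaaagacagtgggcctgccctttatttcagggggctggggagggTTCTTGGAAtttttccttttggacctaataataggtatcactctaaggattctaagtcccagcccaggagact
Irf1 (chr11:53769864-53770013, plus strand): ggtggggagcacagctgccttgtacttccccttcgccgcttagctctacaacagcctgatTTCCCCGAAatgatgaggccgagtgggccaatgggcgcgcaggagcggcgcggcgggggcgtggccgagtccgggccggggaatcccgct
H2-K1 (chr17:34000348-34000497, minus strand): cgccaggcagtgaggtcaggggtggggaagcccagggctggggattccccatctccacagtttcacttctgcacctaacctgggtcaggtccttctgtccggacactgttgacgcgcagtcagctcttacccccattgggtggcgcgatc

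Isg15 carries 3 overlapping ISRE matches in a row, and in Rsad2 the match lies on the opposite strand. Over the whole RefSeq window of 250 bases before to 50 after the start, searched on both strands, 15 of the 39 members with a promoter in the table held an ISRE match (38.5%), against 3.99% of 27025 genes. A GAS match, whose letters read the same on both strands, was in 14 of 39 (35.9%), against 9.55% of genes. Bst2, Eif2ak2, Ifitm3, Irf2, Oas1a and Shisa5 held both motifs. A match is a description of letters and not a measured binding site. A missing match does not show that a gene lacks such an element, because variants of these cores were not searched.

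In the 5 parental libraries the members spanned a wide range of levels per length. B2m (beta-2 microglobulin, chr2:122147686-122153083) stood above all others at a median of 497 CPM per kb of exon, followed by Tap2 (a peptide transporter subunit, 44.4) and Bst2 (tetherin, which holds budding virus at the membrane, 41.9). The receptors and Irf3 were between 3.72 (Ifngr2) and 15.4 (Ifngr1) CPM per kb. The inducible genes differed in level. Lgals3bp had a median of 21.5, Eif2ak2 9.68, Ifit2 8.31 and Ifi35 8.28. Others were low: Isg15 had a median of 3.39, Irf7 0.600 and Rsad2 0.401. Mx1 (an antiviral GTPase) and Ifih1 (MDA5, a sensor of long double-stranded RNA) had 0 reads in 3 of 5 parental libraries each. Among members with at least 50 reads in 1 parental library, the highest parental value was at least 4 times the lowest for 15 of 40 (37.5%), against 23.7% of 12093 genes. Tap2 (1.28 times) and Irf3 (1.20 times) varied little.

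**Figure D1:**
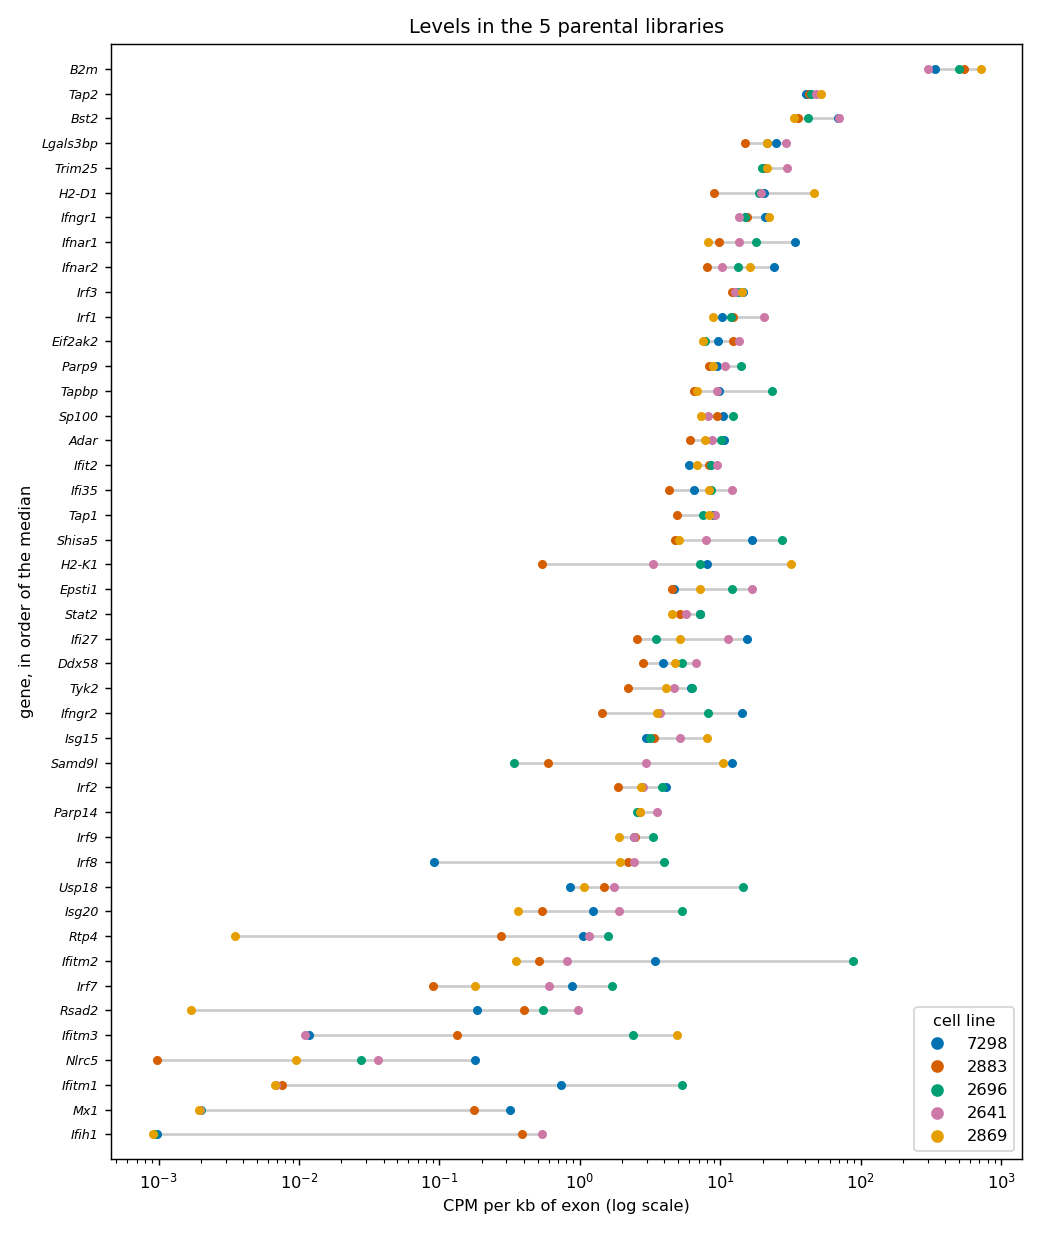
Levels of the 44 members in the 5 parental libraries, as CPM per kb of exon on a log axis, 1 point per cell line and a grey line from the lowest to the highest. B2m is at 301 to 718 in every line, while Ifitm2 runs from 0.351 to 88.7 and Ifih1, Mx1, Ifitm1, Ifitm3, Rtp4, Rsad2 and Nlrc5 reach 0 reads (leftmost points) in some lines.

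The cell lines differed in these genes. In a limma model with terms for line and drug, 14 of 44 members (31.8%) differed between the 5 lines at an adjusted p under 0.05 (moderated F-test), against 26.3% of the 13261 genes tested. In order of p the first 8 were Ifih1 (adjusted p = 0.00239), Ifitm2 (0.00277), H2-K1 (0.00494), B2m (0.00627), Rtp4 (0.00937), Ifngr2 (0.00941), Epsti1 (0.0114) and Rsad2 (0.0161). Samd9l, Lgals3bp, Irf8, Ifnar1, Shisa5 and Irf1 also passed. The share of members is close to the background, so the lines differed in these genes about as often as in others.

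Ifih1 marked lines by presence or absence. It was at 4.37 and 6.81 CPM in line 2641, and at 3.14 CPM in parental line 2883, 8.85 after cytarabine, 5.83 after vincristine, 1.83 after etoposide, 4.19 after prednisone and 0 reads after methotrexate. The libraries of 7298 and 2696 held 0 to 2 reads, and those of 2869 held 0, 10 and 13 reads. Only lines 2883 and 2641 therefore reached 1 CPM, and the methotrexate derivative of 2883 had none. Rtp4, a chaperone of receptor transport, was absent from line 2869 (0, 0 and 1 reads) and highest in line 2696, at 3.37 CPM in the parental, 9.95 in the vincristine and 9.38 in the etoposide derivative.

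B2m was highest in line 2869 (618 CPM parental, 787 cytarabine, 572 vincristine) and lowest in 2641 (259 parental, 270.5 prednisone) and 7298 (290.5 parental, 328 cytarabine). The libraries of these 3 lines did not overlap with those of any other line. Lines 2883 (365 to 562 CPM) and 2696 (393 to 463 CPM) overlapped. B2m was never 2-fold apart from its parental library.

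Between all 11 resistant and the 5 parental libraries, with line as a term, limma called 0 of 44 members and 0% of all 13261 genes at an adjusted p under 0.05. At an unadjusted p under 0.05 there was 1 member (2.3%), against 8.33% of all genes. That member was H2-K1, whose log2 difference was -1.98 ± 0.45 (SE; adjusted p = 0.499, limma). The next lowest by p were Irf1 (-0.20 ± 0.13) and Ifngr1 (-0.63 ± 0.42), and the first 3 higher were Lgals3bp (0.52 ± 0.25), Tapbp (0.41 ± 0.26) and Adar (0.30 ± 0.20), none of them called. Model differences are on the log2(CPM + 1) scale, so those of low genes come out too small. The median over the members was 0.03, against -0.01 over all genes. In bulk RNA, fewer cells of a type and less RNA per cell cannot be told apart.

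The drugs also gave no call. For cytarabine against parental, 0 of 44 members and 0% of all genes passed in limma; at an unadjusted p under 0.05 there were 6 members (13.6%; 5 higher and 1 lower), against 9.42% of all genes. For vincristine 0 members and 0% of genes passed, and 7 members (15.9%; 2 higher, 5 lower) had an unadjusted p under 0.05, against 13% of genes. For etoposide 0 members and 0% of genes passed, with 6 members (13.6%; 1 higher, 5 lower) at the unadjusted threshold, against 8.68%. For prednisone 0 members and 0% of genes passed, with 6 members (13.6%; 2 higher, 4 lower), against 8.46%.

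The direction of the set differed in description between cytarabine and prednisone. With cytarabine 33 of 44 members were higher, against 52.9% of all genes, and the median log2 difference was 0.27, against 0.02. With prednisone 31 of 44 were lower, where 49.1% of all genes were higher, and the median was -0.21, against -0.01. Single lines did not all share these directions. The median log2 ratio to the parent with cytarabine was 0.78 in 2883 and 0.38 in 2869, but -0.29 in 7298. With prednisone it was -0.23 in 2641 and 0.03 in 2883. Medians for vincristine and etoposide were both -0.01, against -0.04 and -0.02. When the differences among these 4 drugs were tested with limma, 0 members and 0% of all genes passed; 9 members (20.5%) had an unadjusted p under 0.05, against 9.21% of genes, led by Mx1 (adjusted p = 0.418), Ifitm2 (0.516) and Rsad2 (0.536).

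Single derivatives differed widely from their parents in these genes. Each derivative was compared with the parental library of its line by the ratio of CPM, for genes with at least 50 reads in 1 of the 2 libraries; with 1 library per culture this ratio has no replicate check, and its 95% Clopper-Pearson interval covers counting error only. Over 392 such pairs of a member and a derivative, 62 were at least 2-fold higher (15.8%) and 38 at least 2-fold lower (9.7%), against 7.0% and 6.0% of the pairs over all genes. Most of the higher pairs came from line 2883, whose derivatives share 1 parental library, so these pairs are not independent. Its cytarabine, vincristine, etoposide, prednisone and methotrexate derivatives held 16, 7, 9, 5 and 6 of them. Derivatives of the other lines held 1 to 6 each. Of 28 members with enough reads in all 11 derivatives, 9 were never 2-fold apart (32.1%, against 63.6% of 9506 genes): Ifnar1, Stat2, Irf9, Irf1, Irf3, Trim25, Eif2ak2, B2m and Tap2. The other extreme was 10 members that were 2-fold higher in some derivatives and 2-fold lower in others (22.7% of 44, against 12.8% of 13243 genes), among them Samd9l, Usp18, Isg15, Epsti1 and H2-D1.

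**Figure D2:**
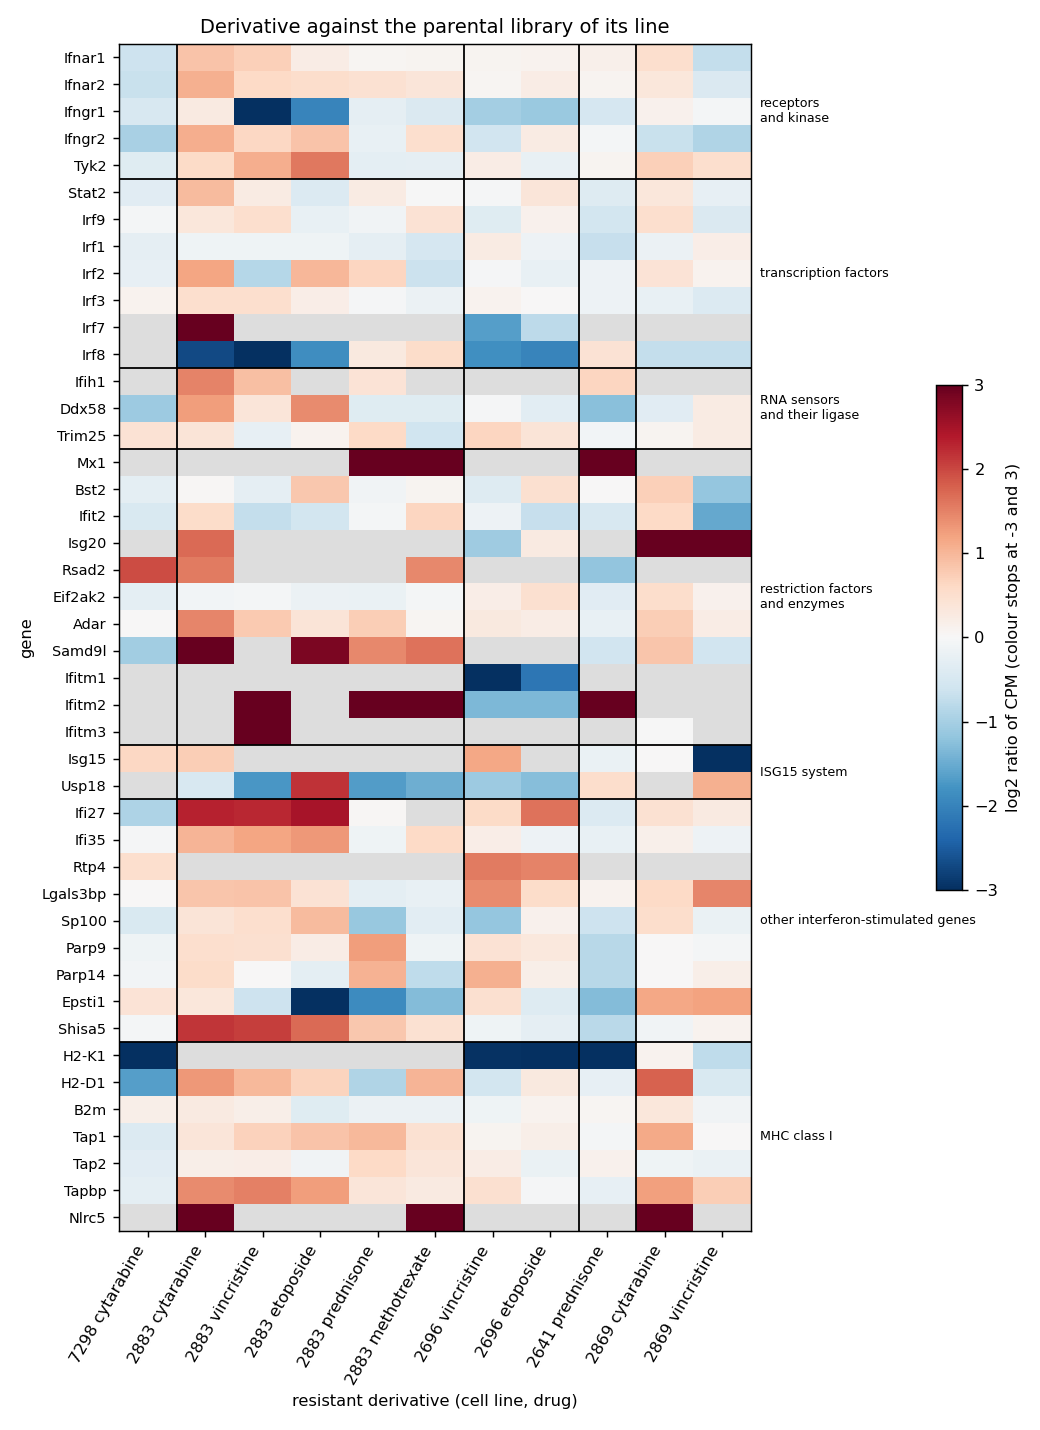
Log2 ratio of CPM in each of the 11 derivatives (columns, by cell line) to the parental library of its line, for the 44 members (rows, by role); red is higher, blue is lower, colours stop at -3 and 3, and grey squares had under 50 reads in both libraries. The 2883 cytarabine column is mostly red (16 of 38 members at least 2-fold higher), and H2-K1 is dark blue in 4 derivatives of 3 lines.

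In line 2883 the cytarabine derivative stood apart from its parent in the most members. There 16 of 38 members were at least 2-fold higher, against 11.7% of all genes with enough reads, and 1 was lower, against 5.88%. The median log2 ratio of the members was 0.78, against 0.06 over all genes. The etoposide derivative had 9 of 32 members higher (background 12.5%) and 3 lower (8.31%), the vincristine derivative 7 of 34 higher (8.36%) and 3 lower (7.28%), the methotrexate derivative 6 of 35 higher (6.1%) and 2 lower (5.89%), and the prednisone derivative 5 of 35 higher (7.95%) and 3 lower (4.3%). All 5 share 1 parental library, so its value enters each of these counts.

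In line 2869 cytarabine had 6 of 36 members higher (background 8.3%) and 0 lower (3.56%), and vincristine 4 of 35 higher (7.96%) and 3 lower (5.34%). In line 7298 cytarabine had 1 of 34 higher (1.96%) and 4 lower (4.52%), and a median log2 ratio of -0.29. In line 2696 vincristine had 4 of 38 higher (4.56%) and 9 lower (9.65%), and etoposide 2 of 37 higher (3.72%) and 6 lower (4.45%). In line 2641 prednisone had 2 of 38 higher (3.57%) and 4 lower (6.51%).

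**Figure D3:**
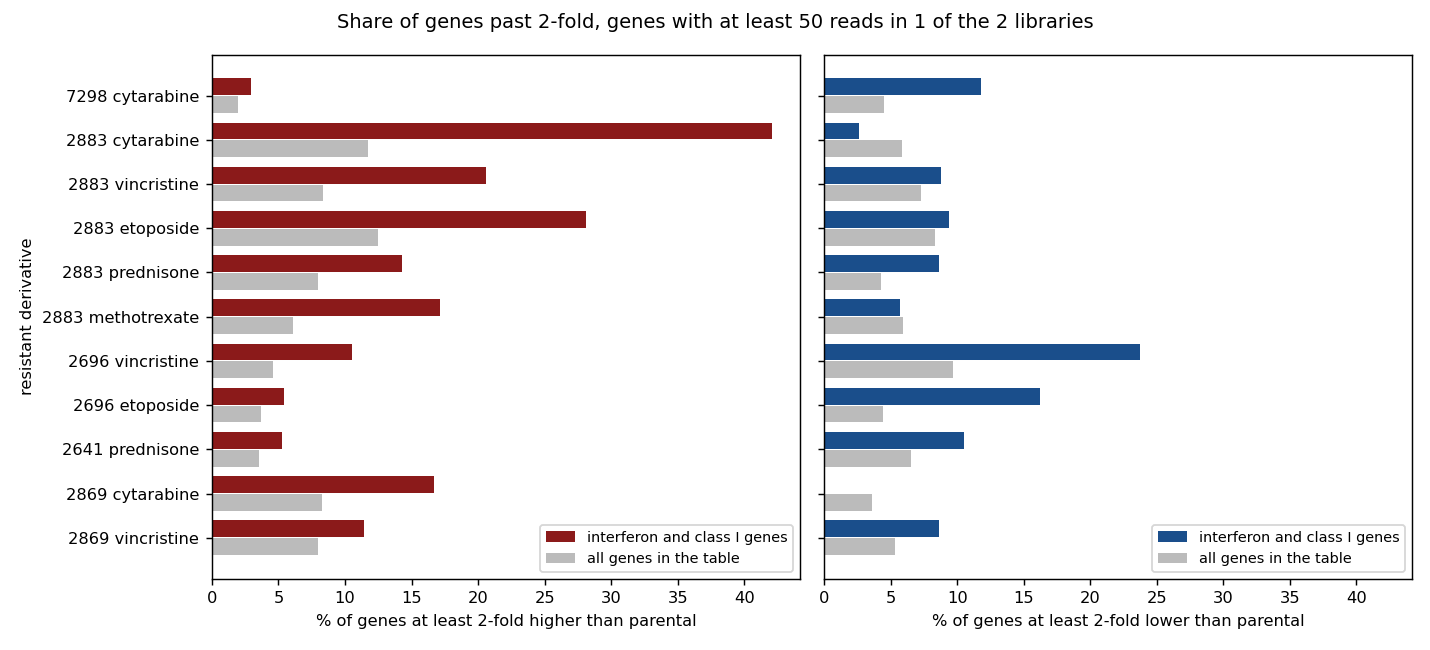
Share of genes at least 2-fold higher (left) and lower (right) than the parental library, in percent, for the interferon and class I genes (coloured bars) and all genes with at least 50 reads in 1 of the 2 libraries (grey bars), in each of the 11 derivatives. The members reach 42.1% higher in the 2883 cytarabine derivative and 23.7% lower in the 2696 vincristine derivative.

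Among receptors, Ifngr1, the ligand-binding chain for interferon gamma (chr10:19591949-19610229), moved most. Parental levels, here and below in the order 7298, 2883, 2696, 2641 and 2869, were 58.8, 43.7, 42.5, 38.9 and 63.5 CPM. In line 2883 it was at 5.42 CPM after vincristine and 11.0 after etoposide, but at 52.3, 36.1 and 32.1 after cytarabine, prednisone and methotrexate. The ratio to the parent was 0.124 (95% interval 0.0964 to 0.157) for vincristine and 0.252 (0.209 to 0.301) for etoposide. In line 2696 the same drugs gave 21.1 and 19.5 CPM, both below the parent (ratios 0.496 and 0.460). In line 2869 vincristine left it at 60.7 CPM, near the parental value. The model gave log2 -1.42 ± 0.46 for vincristine (adjusted p = 0.282, limma) and -1.45 ± 0.54 for etoposide (0.559), neither called.

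Ifngr2, the signalling chain of the same receptor, differed by line. Parental levels were 53.8, 5.44, 30.6, 14.0 and 13.3 CPM, highest in line 7298 and lowest in 2883. Within line 2883 the 6 libraries were at 4.66 to 11.6 CPM, within 2696 at 20.6 to 36.3, and within 2869 at 7.16 to 13.3. Only the cytarabine derivative of 2883 was 2-fold higher than its parent (11.6 CPM, ratio 2.14, interval 1.61 to 2.87). Ifnar2, the ligand-binding chain for type I interferon, was also 2-fold higher there (26.8 to 56.0 CPM), and Ifnar1 was not 2-fold apart in any derivative. Tyk2, the receptor kinase, was at 15.1 CPM in parental 2883, 32.3 after vincristine and 45.3 after etoposide, with parental levels of 42.5, 15.1, 43.4, 32.4 and 28.3 CPM over the 5 lines and resistant levels from 12.3 to 50.9 CPM with a median of 34.3; the groups overlapped. In 2696 it was at 50.9 and 37.0 CPM with the same 2 drugs, against 43.4.

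Among transcription factors, Irf8, a factor of myeloid and B lineage cells that interferon gamma also induces, was lower in the vincristine, etoposide and cytarabine derivatives of line 2883 and nearly absent from line 7298. Parental levels were 0.642, 15.5, 27.9, 17.0 and 13.6 CPM. In line 2883 it was at 2.39 CPM after cytarabine, 0.692 after vincristine and 4.29 after etoposide, but 18.9 after prednisone and 22.8 after methotrexate. In 2696 it was at 7.79 (vincristine) and 7.11 CPM (etoposide), in 2869 at 8.33 (cytarabine) and 8.32 CPM (vincristine), and in 2641 at 23.1 CPM (prednisone).
Of 10 derivatives with enough reads, 5 were at least 2-fold lower and 0 higher. The vincristine derivative of 2883 was furthest from its parent, at 10 reads against 188 (ratio 0.0442, interval 0.0209 to 0.0832). The model gave -1.72 ± 0.51 for vincristine (adjusted p = 0.261) and -0.98 ± 0.51 for cytarabine (0.564, both limma), neither called.

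Of the other factors, Irf2 and Irf7 were 2-fold apart from the parent in some derivatives and the remaining 4 in none. Irf1, which drives class I and antiviral genes, had parental levels of 40.8, 48.8, 47.3, 81.9 and 35.2 CPM and resistant levels from 31.4 to 56.2 CPM with a median of 42.5; it was below its parent in 9 of 11 derivatives, never by 2-fold. With prednisone the log2 difference was -0.42 ± 0.18 (adjusted p = 0.570, limma). Stat2, Irf9 and Irf3, the factors that turn on type I interferon and its targets, were never 2-fold apart. Irf2, which competes with Irf1, was 2-fold higher in the cytarabine and etoposide derivatives of 2883 (13.8 to 31.4 and 27.8 CPM). Irf7, the amplifier of interferon alpha production, was low throughout: it had 4 reads in parental 2883 and 63 in the cytarabine derivative (ratio 11.1, interval 4.14 to 42.1), and in 2696 it went from 84 reads to 34 after vincristine (ratio 0.320, interval 0.208 to 0.483).

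Of the RNA sensors, Ddx58 (RIG-I, a sensor of short 5′-triphosphate RNA) had parental levels of 27.4, 19.8, 37.7, 47.1 and 33.7 CPM. It was at 46.8 CPM in the cytarabine and 52.5 in the etoposide derivative of 2883, but at 12.8 in the cytarabine derivative of 7298 and 19.7 in the prednisone derivative of 2641. Those 4 were at least 2-fold apart from the parent, 2 in each direction, and the remaining derivatives were at 15.3 to 40.3 CPM. With prednisone the log2 difference was -1.11 ± 0.44 (adjusted p = 0.562, limma). Trim25, the ligase that activates RIG-I, stayed between 76.4 and 180.2 CPM in the 16 libraries and was never 2-fold apart.

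The restriction factors held several of the largest ratios. Mx1 (chr16:97447035-97462907, listed in the table as a polymorphic pseudogene) had 8 reads in parental 2883 and 464 in its prednisone derivative (0.667 to 27.0 CPM; ratio 41.0, interval 20.6 to 95.4). In line 2641 it went from 0 reads to 84 after prednisone (4.44 CPM), at least 19.6-fold higher against a floor of 3 reads per library. So both prednisone derivatives held Mx1 above every parental library, whose highest was 1.20 CPM in 7298. The methotrexate derivative of 2883 was also high (11.7 CPM, ratio 17.8, interval 8.83 to 41.9), its vincristine derivative was at 3.16 CPM, its cytarabine derivative at 0.180 and its etoposide derivative had 0 reads. The cytarabine derivative of 7298 was at 1.78 CPM, and lines 2696 and 2869 had 0 reads in all 6 libraries. For prednisone the model gave 3.38 ± 0.54 (adjusted p = 0.271, limma), the smallest unadjusted p of any member in the comparisons of resistant with parental libraries, and not called. Its paralog Mx2 was at 0.338 CPM in parental 2883, 8.44 after prednisone and 5.05 after methotrexate, and at 0.233 and 4.07 CPM in 2641 before and after prednisone; reads that both genes could claim were not separated here.

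Ifitm2, a membrane protein that restricts virus entry (chr7:140954837-140955987), was, like Mx1, above the parent in both prednisone derivatives and in the methotrexate and vincristine derivatives of 2883, but its highest values were in line 2696, where Mx1 had 0 reads. Parental levels were 2.23, 0.338, 58.1, 0.534 and 0.230 CPM, so line 2696 stood far above the rest. After prednisone it was at 15.8 CPM in 2883 and 15.1 in 2641 (ratios 47.8 and 28.6, intervals 18.5 to 177 and 13.7 to 71.9). In 2883 it was also at 12.2 CPM after methotrexate and 4.73 after vincristine, but at 0.147 after etoposide and 0 reads after cytarabine.
In 2696, where it started high, it was at 22.9 CPM after vincristine and 22.7 after etoposide, both lower than the parent (ratios 0.395 and 0.391). It was at 0.0622 CPM in the cytarabine derivative of 7298 and at 0.0649 (cytarabine) and 0.355 CPM (vincristine) in 2869. For prednisone the model gave 3.10 ± 0.64 (adjusted p = 0.391) and -0.93 ± 0.54 for cytarabine (0.588, both limma), neither called. Its neighbours Ifitm1 and Ifitm3 on chromosome 7 had few reads in most libraries. In the prednisone derivative of 2883 Ifitm1 had 4 reads against 0 in the parent, and Ifitm3 9 against 1. In line 2696 both were below the parent, as Ifitm2 was: Ifitm3 had 21 reads in the parent, 5 after vincristine and 0 after etoposide, and Ifitm1 had 22 after etoposide. Ifitm3 had 1 read in parental 2883 and 57 after vincristine (ratio 47.4, interval 8.17 to 1905), and Ifitm1 went from 76 reads to 7 in the vincristine derivative of 2696 (ratio 0.0729, interval 0.0284 to 0.158).

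Samd9l, which slows growth and translation, differed by line and by derivative. Parental levels were 65.6, 3.22, 1.84, 16.1 and 56.7 CPM. In 2883 it was at 48.6 CPM after cytarabine (ratio 15.1, interval 11.0 to 21.4), 22.9 after etoposide, 9.96 after methotrexate, 8.79 after prednisone and 2.54 after vincristine, so 4 of its 5 derivatives were above the parent. In the lines that started high it went either way with cytarabine, to 31.6 CPM in 7298 and 100.3 in 2869.
Isg20, an RNA exonuclease, was at 0.674 CPM in parental 2869, 9.03 after cytarabine (ratio 13.5, interval 6.95 to 30.2) and 7.56 after vincristine (ratio 11.3, interval 5.79 to 25.3). Its parental levels elsewhere were 0.997 to 9.91 CPM, so both derivatives of 2869 reached the level of line 2696, where the vincristine derivative was lower (4.71 CPM).

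**Figure D4:**
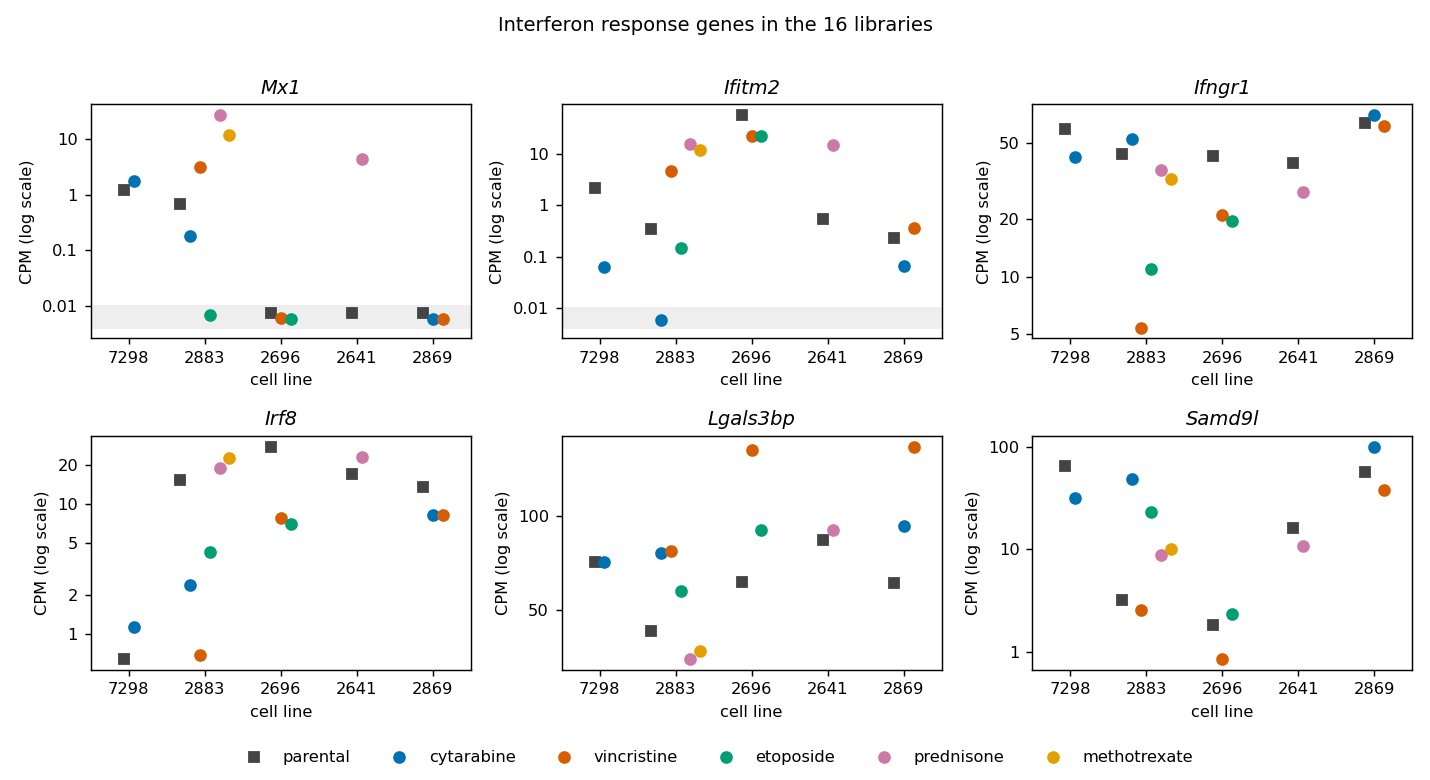
CPM (log axes) of 6 interferon response genes in the 16 libraries, by cell line; squares are parental and circles are resistant cultures, coloured by drug, and the grey band marks values of 0 reads. Mx1 and Ifitm2 are high after prednisone in both 2883 and 2641, Ifngr1 is low after vincristine and etoposide in 2883 and 2696, and Lgals3bp is highest after vincristine in 2696 and 2869.

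Rsad2, which makes a chain-terminating nucleotide against viruses, was low in most libraries. Parental levels were 0.801, 1.74, 2.37, 4.22 and 0.00741 CPM (0 reads in 2869), and resistant levels ran from 0.180 to 5.12 CPM with a median of 1.85, so the groups overlapped. With cytarabine it was above the parent in all 3 lines (10 to 54 reads in 7298, 21 to 88 in 2883 and 0 to 14 in 2869), with a log2 difference of 0.94 ± 0.29 (adjusted p = 0.496, limma). With etoposide it was -1.03 ± 0.35 (0.557). Adar, the RNA-editing deaminase that keeps self RNA from the sensors, had parental levels of 86.8, 49.2, 82.4, 70.4 and 62.9 CPM. It was at 87.3, 136 and 105 CPM in the cytarabine derivatives of 7298, 2883 and 2869, so higher in 2883 and 2869 and nearly equal in 7298; the log2 difference was 0.69 ± 0.23 (adjusted p = 0.496, limma).
Ifit2, which blocks translation of viral RNA, had parental levels of 23.5, 32.6, 33.9, 37.5 and 26.7 CPM. It was at 19.9, 30.7 and 9.25 CPM in the vincristine derivatives of 2883, 2696 and 2869, below the parent in each, and its log2 difference was -0.90 ± 0.29 (adjusted p = 0.281, limma). Eif2ak2 (PKR, the kinase that stops translation on double-stranded RNA) was never 2-fold apart from its parent. Bst2 was 2-fold lower only in the vincristine derivative of 2869 (30.3 to 13.7 CPM).

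The ISG15 system went in no common direction. Isg15, whose promoter is shown above with 3 ISRE matches, was at 2.23, 2.56, 2.37, 3.92 and 6.08 CPM in the parental lines. It had 82 reads in parental 2869, 103 after cytarabine and 11 after vincristine (ratio 0.105, interval 0.0506 to 0.198), while in 2696 vincristine went the other way (31 to 87 reads, ratio 2.22). Usp18, the protease that removes ISG15 and damps the type I receptor, was at 2.39, 4.13, 40.3, 4.90 and 2.97 CPM in the parental lines, highest in 2696. Of 9 derivatives with enough reads it was 2-fold lower in 5 and 2-fold higher in 2, with 18.7 CPM in the etoposide derivative of 2883 against 4.13 in its parent.

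Among the other interferon-stimulated genes, Lgals3bp, a secreted galectin ligand, was higher in all 3 vincristine derivatives. It was at 42.6 and 77.3 CPM in 2883, 61.2 and 162 in 2696 and 60.8 and 167 in 2869, parental before vincristine. The last 2 derivatives were above all other libraries. The log2 difference was 1.17 ± 0.20 (adjusted p = 0.153, limma), not called. With cytarabine it was at 71.3 (7298), 75.9 (2883) and 92.7 CPM (2869), 0.55 ± 0.20 in the model (adjusted p = 0.50, limma). In 7298 this was nearly equal to the parent (70.8 CPM). With etoposide it was at 57.3 (2883) and 90.0 CPM (2696), 0.46 ± 0.23 in the model (0.600), and with prednisone at 34.7 (2883) and 89.8 CPM (2641), on either side of the parents.

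Epsti1, an interferon-induced gene of macrophages and epithelium (chr14:77904239-78002657), was nearly absent from 1 derivative. In line 2883 it had 127 reads in the parent (10.5 CPM) and 2 after etoposide (ratio 0.0134, interval 0.00161 to 0.0494), with 2.86 CPM after prednisone, 4.27 after methotrexate, 6.79 after vincristine and 13.3 after cytarabine. In 2696 etoposide left it at 21.5 CPM, against 28.2 in the parent, so the etoposide difference rested on 2883. The model gave -1.78 ± 0.55 (adjusted p = 0.557, limma), and -0.45 without the 2883 derivative. In 2641 it was at 39.2 CPM in the parent and 16.0 after prednisone, and in 2869 both derivatives were 2-fold above the parent (16.6 to 36.9 CPM after cytarabine and 38.5 after vincristine).

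The 3 genes Ifi27 (a small mitochondrial and nuclear envelope protein), Ifi35 and Shisa5 (an endoplasmic reticulum protein that p53 also induces), were each at least 2-fold higher in the cytarabine, vincristine and etoposide derivatives of line 2883. Shisa5 was at 15.7 CPM in the parent and 69.6, 66.7 and 50.8 in those derivatives, and at 27.8 and 21.7 after prednisone and methotrexate. Ifi27 was at 3.71 CPM in the parent, 18.3, 17.9 and 20.6 in the same derivatives, and 3.79 and 2.78 in the other 2. The parental library is shared by all 5, and it was the lowest of the 5 parental libraries for all 3 genes. In 2696 Ifi27 was at 5.11 CPM in the parent, 7.55 after vincristine and 15.7 after etoposide, and the log2 difference for etoposide was 1.44 ± 0.52 (adjusted p = 0.559, limma).

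Sp100, a nuclear body protein, was lower with prednisone in both lines, from 71.1 to 32.1 CPM in 2883 and from 61.9 to 40.5 in 2641 (log2 -1.14 ± 0.35, adjusted p = 0.508, limma). This was not particular to prednisone: in 2696 it went from 93.2 to 41.6 CPM after vincristine. Over the 11 derivatives Sp100 was above the parent in 5 and below it in 6. Parp9 and Parp14, ADP-ribosyltransferase genes on chromosome 16, were both higher in 2883 and lower in 2641 after prednisone. Parp9 was at 40.5 and 95.9 CPM in 2883 and at 53.0 and 29.8 CPM in 2641, before and after prednisone. Dtx3l, which overlaps Parp9 on the other strand and encodes its partner, was at 77.4 and 194 CPM in 2883 and at 102 and 79.8 in 2641; whether the counting used strand is not given in the sources used here, so reads in the overlap could count for either.

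In the MHC class I group H2-K1 was the member that was most often much lower. H2-K1 encodes a classical heavy chain (chr17:33996017-34000347, minus strand). Parental levels were 23.7, 1.57, 21.2, 9.68 and 93.9 CPM, so the lines differed widely before any resistance. In 7298 the cytarabine derivative was at 2.21 CPM (299 to 39 reads, ratio 0.0931, interval 0.0649 to 0.130). In 2696 the vincristine derivative was at 2.72 CPM and the etoposide derivative at 0.239 (278 reads to 45 and 4; the latter 91.0-fold lower, ratio interval 0.00298 to 0.0285). In 2641 the prednisone derivative was at 0.111 CPM (129 reads to 2, 92.0-fold lower, ratio interval 0.00130 to 0.0401).

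Line 2869 did not share this. There H2-K1 was at 102 CPM after cytarabine and 55.05 after vincristine, against 93.9 in the parent. In 2883 the parent had only 19 reads (1.57 CPM) and the derivatives 0 to 19, too few for a ratio under the minimum used here. Of the 6 derivatives with enough reads 5 were below the parent, 4 of them by at least 2-fold. The log2 difference was -1.61 ± 0.64 for cytarabine (adjusted p = 0.508), -1.52 ± 0.64 for vincristine (0.368), -2.66 ± 0.75 for etoposide (0.557) and -2.47 ± 0.76 for prednisone (0.508, all limma), negative for each drug and called for none. Ring1 and Vps52, near it on the chromosome, did not move with it in 2696 and 2641. Ring1 was at 18.1, 19.9 and 19.5 CPM in 2696 (parental, vincristine, etoposide) and at 18.6 and 18.5 in 2641 (parental, prednisone). Vps52 was at 47.9, 59.9 and 54.3 and at 40.7 and 51.4 CPM in the same order. Col11a2, also near, was lower in the cytarabine derivative of 7298 (41.6 to 13.8 CPM) and the vincristine derivative of 2696 (27.6 to 12.0). Col11a2 was at 27.1 CPM after etoposide in 2696, and at 16.2 and 15.7 in 2641 before and after prednisone. The low pseudogene row H2-K2 went from 6.18 to 2.80 CPM in 2641.

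H2-D1, the other classical heavy chain in the list (chr17:35262730-35267499), differed from H2-K1 in several derivatives. Parental levels were 52.9, 23.3, 48.6, 50.1 and 119 CPM. It was lower in the cytarabine derivative of 7298 (16.7 CPM, ratio 0.316, interval 0.274 to 0.362), but at 57.2 CPM in the cytarabine derivative of 2883 and 410.1 in that of 2869 (ratios 2.45 and 3.44, intervals 2.15 to 2.81 and 3.25 to 3.63). H2-K1 therefore made up 31.0% of the reads of both genes in parental 7298 and 11.7% in its derivative, 30.3% in parental 2696 and 0.400% after etoposide, and 16.2% in parental 2641 and 0.260% after prednisone. H2-K1 and H2-D1 together were at 76.6 CPM in parental 7298 and 18.9 in its cytarabine derivative. Summed over all 12 class I heavy chain rows of the table, the pseudogene row H2-K2 included, the level instead went from 302 to 406 CPM there. Rows beyond the classical pair went either way in 7298, as H2-T10 (52.4 to 107 CPM), H2-T22 (84.1 to 152) and H2-T23 (29.7 to 22.1) did. The sum of the 12 rows was 213 and 153 CPM in 2641 before and after prednisone. In 2696 it was 232 CPM in the parent, 170 after vincristine and 174 after etoposide, and in 2869 it was 721 CPM in the parent, 887 after cytarabine and 223 after vincristine. In 2883 it was 221 CPM in the parent, 307.5 after cytarabine, 114 after vincristine, 250.1 after etoposide, 199.5 after prednisone and 368 after methotrexate. With vincristine in 2883 the classical pair went the other way, from 24.89 to 47.25 CPM. Class I genes are near copies of each other and vary between mouse strains, and neither the strain of these lines nor the treatment of reads with several matches is given in the sources used here, so each single class I value is uncertain.

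Nlrc5, the transactivator of class I genes (chr8:94434356-94527272), held the ratio furthest from 1 among the pairs with enough reads. In line 2869 it had 1 read in the parent, 838 after cytarabine (49.5 CPM) and 1 after vincristine. The cytarabine ratio was 668, with a counting interval of 119.5 to 26400. In 2883 it had 0 reads in the parent, 95 after cytarabine and 59 after methotrexate, at least 22.4-fold and 17.0-fold higher against a floor of 3 reads per library; the other derivatives of 2883 had 5 (vincristine), 13 (etoposide) and 32 reads (prednisone). In 7298 it went the other way at low counts (19 to 4 reads after cytarabine), and libraries of 2696 and 2641 held 1 to 6 reads. With cytarabine the log2 difference was 2.34 ± 0.94 (adjusted p = 0.509, limma).

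The cytarabine derivative of 2869 was the only one in which 4 of 7 class I genes were at least 2-fold higher. Beside Nlrc5 and H2-D1 these were Tap1, a subunit of the peptide transporter (45.3 to 100.1 CPM, ratio 2.21, interval 2.01 to 2.43), and Tapbp (tapasin, which holds the transporter to the heavy chain; 24.9 to 58.1 CPM, ratio 2.33). B2m was at 618 and 787 CPM and H2-K1 at 93.9 and 102. Cpne2, the gene next to Nlrc5, was at 10.8 CPM in the parent and 52.3 in this derivative, while Herpud1 on the other side was at 48.0 and 57.2. Cpne2 did not follow Nlrc5 in all libraries. In line 2883 it was at 3.88 CPM in the parent, 0.122 after cytarabine and 11.7 after methotrexate. In the vincristine derivative of 2696, where Nlrc5 had 6 reads, it was at 29.4 CPM. In the 2883 cytarabine derivative, where Nlrc5 was lower than in that of 2869, H2-D1 and Tapbp (23.6 to 62.7 CPM) were 2-fold higher and Tap1 was at 27.1 and 34.8 CPM.

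**Figure D5:**
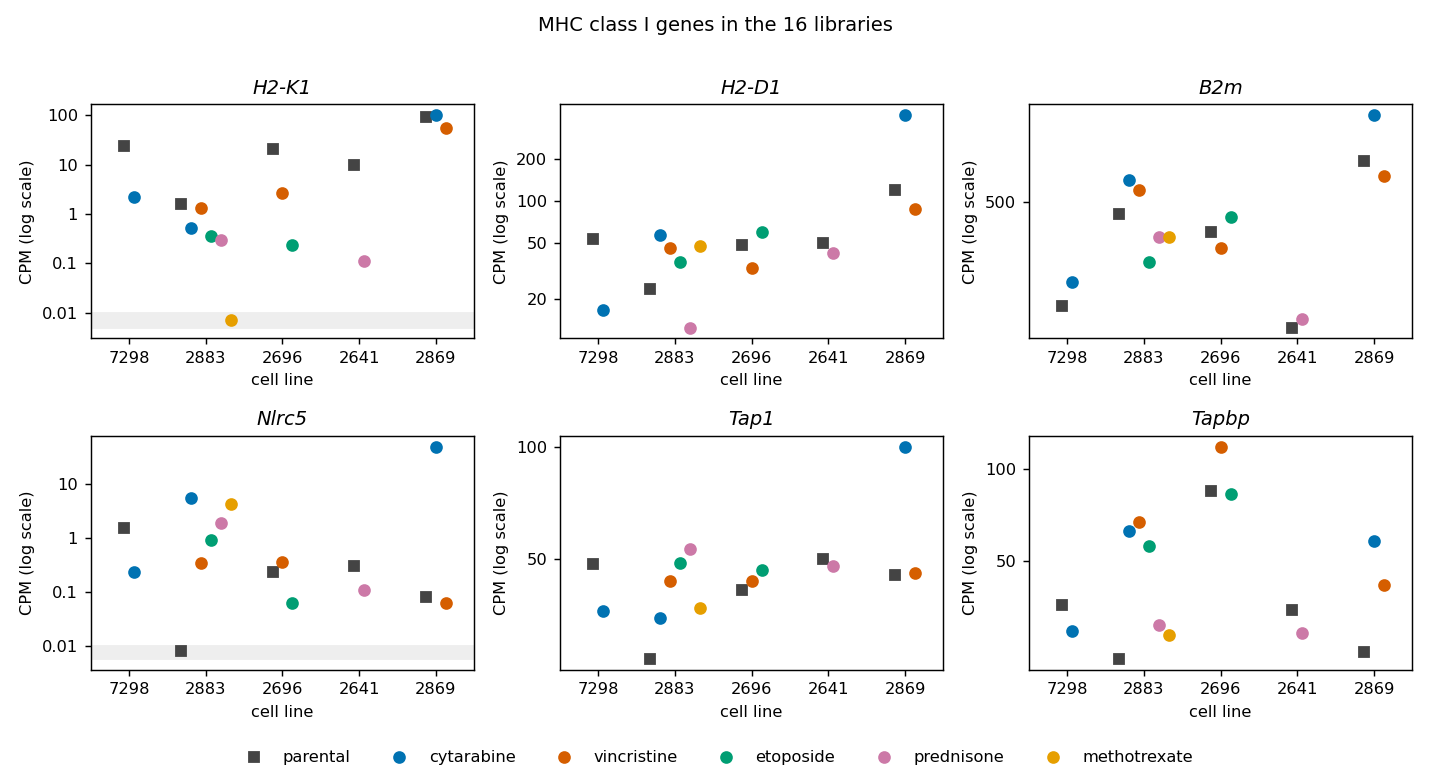
CPM (log axes) of 6 MHC class I genes in the 16 libraries, by cell line; squares are parental and circles are resistant cultures, coloured by drug, and the grey band marks values of 0 reads. H2-K1 lies below the parent in 7298, 2696 and 2641, and Nlrc5, H2-D1 and Tap1 have their highest values (49.5, 410.1 and 100.1 CPM) in the cytarabine derivative of 2869.

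Tapbp was 2-fold higher in 4 derivatives: cytarabine, vincristine (66.9 CPM) and etoposide (56.0 CPM) in 2883, and cytarabine in 2869. Its parental levels were 35.8, 23.6, 85.0, 34.2 and 24.9 CPM, highest in 2696, where the vincristine derivative was at 119 CPM. For vincristine the log2 difference was 0.72 ± 0.30 (adjusted p = 0.357, limma). Tap2 was at 155, 163, 168, 180.1 and 198 CPM in the parental lines and resistant levels ran from 122 to 245 CPM with a median of 186, never 2-fold apart; with prednisone the log2 difference was 0.31 ± 0.16 (adjusted p = 0.623, limma). Tyk2 was the third member by p among those higher with vincristine (0.57 ± 0.32, adjusted p = 0.486) and with etoposide (0.68 ± 0.37, adjusted p = 0.617, both limma).

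Further lists of the pathway were read in the same limma fits. Of 18 genes for interferons, their other receptors and their kinases, 10 had a row, and none of these was an interferon gene; 0 of 10 passed in any drug comparison, and genes that differed between lines included Jak1, Jak2, Socs3, Pias1 and Ptpn6. Socs3, a feedback inhibitor, had 0 reads in parental 7298 and 101 CPM in parental 2883. Over all derivatives the log2 difference was -0.57 ± 0.29 for Socs3 (adjusted p = 0.621, limma). Of 20 nucleic acid sensing genes 16 were tested, 0 passed in a drug comparison and 3 (18.8%) differed between lines (Tbk1, Tlr9 and Nlrx1), against 26.3% of all genes.

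Of 83 further interferon-stimulated genes 61 were tested, 0 passed in a drug comparison and 18 (29.5%) differed between lines, close to the 26.3% of all genes, among them Parp12, Ifi209, Tgtp1 and Mx2. Their median log2 difference was 0.31 with cytarabine (41 of 61 higher) and -0.44 with prednisone (15 of 61 higher), against 0.02 and -0.01 over all genes. Of all genes 52.9% were higher with cytarabine and 49.1% with prednisone. In the cytarabine derivative of 2883, 21 of 50 with enough reads were 2-fold higher and 1 lower, against 11.7% and 5.88% of all genes. In that of 2869, 16 of 45 were higher and 5 lower (all genes 8.3% and 3.56%), and in that of 7298, 1 of 45 was higher and 3 lower (1.96% and 4.52%), near the background. In the prednisone derivative of 2641, 1 of 50 was higher and 18 lower (3.57% and 6.51%), and in that of 2883, 7 of 43 were higher and 1 lower (7.95% and 4.3%). The difference between lines within a drug was not tested.

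Of 27 further class I and loading genes 22 were tested, with 0 called in a drug comparison. With vincristine 11 of them had an unadjusted p under 0.05 (50%, against 13% of all genes), 5 higher and 6 lower. The 6 lower were all heavy chain rows: H2-Q2, H2-Q4, H2-T3, H2-T10, H2-T22 and H2-T24. The 5 higher were Psme1, Psme2, Canx, Pdia3 and Tapbpl, none of them a heavy chain. In line 2696, however, H2-T3 (7.02 to 11.35 CPM) and H2-T10 (16.8 to 24.5 CPM) were above the parent after vincristine. In the vincristine derivative of 2869, 2 of 21 were 2-fold higher and 6 lower (all genes 7.96% and 5.34%). In line 2883, 5 of 21 were higher and 0 lower after etoposide (12.5% and 8.31%) and after methotrexate (6.1% and 5.89%). H2-Q2, H2-T24, Erap1, Canx, Tapbpl and Rfx5 differed between lines (27.3%, against 26.3% of all genes). Of 9 MHC class II genes 6 had a row and 3 were tested, none called. H2-Ab1, a class II chain, was at 1.24 CPM in parental 2883, 0.910 in parental 2641 and 1.27 in parental 2869, and had 0 reads in all 5 derivatives of 2883 and in the cytarabine derivative of 2869. It was at 0.761 CPM in the vincristine derivative of 2869 and 0.0580 CPM in the prednisone derivative of 2641, and lines 7298 and 2696 had 0 reads in all libraries. The other class II genes tested, H2-DMa and H2-Oa, mostly went the other way in 2883. H2-DMa was at 1.34 CPM in the parent and at 3.52 (prednisone) to 9.81 CPM (cytarabine) in the derivatives. H2-Oa was at 4.13 CPM in the parent, 3.32 after prednisone and 9.11 to 13.8 after the other drugs. In 2696 both were lower after vincristine (16.0 to 5.51 and 16.3 to 3.99 CPM).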

How the data were processed

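The authors deposited 1 table of FPKM with 13474 rows. Tools listed in the submitters' processing notes are STAR, cutadapt and Partek, with mm10 as the build; neither the counting method nor the annotation is given in the sources used here. FPKM in this table use the whole gene span with introns, so they were multiplied by that length to give CPM, on which a pseudocount is worth the same reads in every gene of a library; the values include 0.1 read added per gene. Depth was taken from the value of 0.1 read. Only 70.5% to 75.7% of values between 0.5 and 200 reads lay within 0.05 of a whole read, so no count model was used.

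limma 3.58.1 (R 4.3.3; lmFit, eBayes with trend) was run on log2(CPM + 1) for 13261 genes with at least 1 CPM in at least 2 libraries. The models had line and drug (6 residual degrees of freedom) or line and resistance (10); the labels name the line of each culture, which pairs derivatives with parents. P-values are two-sided, Benjamini-Hochberg adjusted over all genes, threshold 0.05; errors are SE. Methotrexate has 1 culture and no test. Scripts were tested on simulated data. Levels per kb use exon unions of GENCODE vM21, promoters RefSeq GRCm38.p6 (39 of 47 members matched). Coordinates are the table's, on mm10.

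Named genes were, per comparison, up to 8 called members, or the 3 per direction with the smallest p; the 6 with the smallest p between lines; and pairs of at least 8-fold. Members and lists were chosen with earlier results of these data known. The alternatives are in the closing section.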

Additional observations from a re-analysis of the deposited data

Results flagged for a closer look

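In 8 of the 44 members, 1 of the 5 parental libraries lay far from the other 4 by Dixon's test (gap to the nearest value over the whole range). Chance flags about 1 in 20 groups of normally distributed values. The test used CPM without logs, which are skewed to high values, so that rate need not hold here. The share of all genes flagged is not given, so the count is not read as an excess. All 8 were high values. Line 2696 gave 4 of them: Ifitm1 was at 5.80 CPM (next 0.801), Ifitm2 at 58.1 (next 2.23), Usp18 at 40.3 (next 4.90) and Tapbp at 85.0 (next 35.8). Line 2641 was high for Trim25, at 171 CPM (next 124), and Parp14, at 33.0 (next 25.1). H2-K1 was at 93.9 CPM in line 2869 (next 23.7), and Nlrc5 at 1.51 CPM in line 7298 (next 0.309). Ifitm1, Ifitm2 and Usp18 were also lower than this parent in both 2696 derivatives, while Tapbp was at 119 CPM after vincristine and 82.8 after etoposide. No cause was tested.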

How the results depend on the processing

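The count of members called stayed 0 for each of the 6 comparisons of resistant cultures and drugs under all 23 alternatives (log2(FPKM + 1), pseudocounts of 0.1 and 10, no filter, median-of-ratios and quantile scaling, no replicate block, and each library left out), and was 10 to 16 between lines. Without the replicate block, that is without the term for cell line, 0 members were called in each of those 6 comparisons. Requiring 200 reads in place of 50 gave 41 member pairs 2-fold higher and 22 lower; a 1.5-fold threshold gave 97 and 62. Of the named log2 differences 1 changed sign: Tyk2 with etoposide was -0.067 without the 2883 derivative and 1.33 without the 2696 derivative. Between lines Rsad2 lost its call with a pseudocount of 10 (adjusted p = 0.0622, limma), without the 2869 parental library (0.0805) and without the 2869 cytarabine derivative (0.0519), and Rtp4 with log2(FPKM + 1) (0.0924); no other of the 8 named did.
H2-K1 over all derivatives ranged from -2.91 (pseudocount 0.1) to -0.79 (pseudocount 10), Mx1 with prednisone from 0.93 to 5.46, and Epsti1 with etoposide from -2.94 (without the 2696 derivative) to -0.10 (log2(FPKM + 1)). Counts under about 50 reads limit the precision of Irf7, Ifitm1, Ifitm3, Rsad2, Rtp4, Mx1 and Nlrc5 in most libraries.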
